A study of Mus musculus with 12 samples.

Results

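The peaks described here are those of 5 chromosomal windows set around 6 genes of early B cell development: Ebf1, Pax5, Ikzf1, Rag1 with Rag2, and Myc. The windows were set around genes and not by a limit on measured values, but with earlier results of these data known. They are given in coordinates of the mouse build mm9: chromosome 11 from 44.42 to 44.83 Mb for Ebf1, chromosome 4 from 44.53 to 44.74 Mb for Pax5, chromosome 11 from 11.57 to 11.69 Mb for Ikzf1, chromosome 2 from 101.44 to 101.51 Mb for Rag1 and Rag2, and chromosome 15 from 61.8 to 61.84 Mb for Myc. A peak was a member if it overlapped a window by at least 1 bp. This gave 39 peaks of the 53092 in all lists. The lists come from chromatin immunoprecipitation with sequencing (ChIP-seq) of small pre-B cells, sorted from mouse bone marrow as lineage-negative, B220+, CD43-, IgM- cells of low forward scatter. The labels give the strain of these samples as C57BL/6, with no age or number of mice. The sorting protocol names wild-type and Brwd1 mutant mice together, and the labels of the ChIP-seq samples give no genotype of their own, so the genotype behind these peaks is not stated. Antibodies to BRWD1, to acetylated lysine 9 of histone H3 (H3K9Ac) and to H3 carrying both phosphorylated serine 10 and acetylated lysine 14 (H3S10pK14Ac) were each used on 2 biological replicates, which gave 6 lists. Input DNA and ATAC-seq samples of the series are not analysed here.

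EBF1 and PAX5 are transcription factors that specify and maintain B cell identity, and Ikaros, the product of Ikzf1, is a zinc finger factor needed for lymphoid development and for the exit of pre-B cells from the cell cycle. RAG1 and RAG2 form the recombinase that cuts antigen receptor genes, and small pre-B cells use it to rearrange light chain genes. MYC drives growth and division, and its expression falls as large pre-B cells become small resting ones. H3K9Ac is found at active promoters and enhancers. BRWD1 is a bromodomain protein with WD repeats that binds modified histones.

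No mm9 annotation or genome was used, so no peak was assigned to a start site, exon, intron or enhancer, and the labelled cell type could not be checked at the promoters of marker genes. Gene models of RefSeq in another build, GRCm38.p6, served only for names, lengths and neighbours. Each window was wider than its gene: Ebf1 spans 390 kb there and its window 410 kb, Pax5 186 kb of 210 kb, Ikzf1 88.0 kb of 120 kb, Rag1 11.3 kb and Rag2 7.82 kb of a shared 70 kb, and Myc 5.02 kb of 40 kb. Other genes share these places. In GRCm38.p6 Rag2 overlaps Iftap, Ikzf1 overlaps the non-coding gene Gm11999, and Pax5 overlaps Mir5120, Gm12462 and 5730488B01Rik. A peak in a window may therefore belong to a neighbour.

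The promoters of 5 of these genes differ widely in CpG content, a sequence feature the windows were not chosen for. Myc has no entry in RefSeq's promoter table. The 250 bases before the start, 5′ to 3′ along the gene, are shown for 1 start of each gene in RefSeq's table (GRCm38.p6), with every CpG in capitals. For Ebf1 and Ikzf1, which have more than 1 start there, the start shown is the one with more CpG. These positions are in another build than the peaks and cannot be laid on them.
Pax5, chr4:44710695-44710944, reverse strand: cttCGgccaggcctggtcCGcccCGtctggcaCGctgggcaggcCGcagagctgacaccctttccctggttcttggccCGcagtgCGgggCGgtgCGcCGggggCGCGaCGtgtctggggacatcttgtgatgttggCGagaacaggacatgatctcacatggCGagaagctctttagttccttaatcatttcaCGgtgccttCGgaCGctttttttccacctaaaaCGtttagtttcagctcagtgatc
Ikzf1, first start, chr11:11685675-11685924, forward strand: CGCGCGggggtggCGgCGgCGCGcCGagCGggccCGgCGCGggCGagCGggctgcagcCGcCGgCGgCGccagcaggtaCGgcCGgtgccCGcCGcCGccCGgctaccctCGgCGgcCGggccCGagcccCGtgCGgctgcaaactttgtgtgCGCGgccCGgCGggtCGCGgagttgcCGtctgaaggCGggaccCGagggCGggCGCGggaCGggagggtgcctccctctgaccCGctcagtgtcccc
Ebf1, second start, chr11:44619978-44620227, forward strand: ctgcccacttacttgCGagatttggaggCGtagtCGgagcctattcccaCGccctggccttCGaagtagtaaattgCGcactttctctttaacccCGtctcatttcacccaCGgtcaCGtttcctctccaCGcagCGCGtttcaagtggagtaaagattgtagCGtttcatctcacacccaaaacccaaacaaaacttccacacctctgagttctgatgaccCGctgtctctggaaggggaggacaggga
Rag1, chr2:101649533-101649782, reverse strand: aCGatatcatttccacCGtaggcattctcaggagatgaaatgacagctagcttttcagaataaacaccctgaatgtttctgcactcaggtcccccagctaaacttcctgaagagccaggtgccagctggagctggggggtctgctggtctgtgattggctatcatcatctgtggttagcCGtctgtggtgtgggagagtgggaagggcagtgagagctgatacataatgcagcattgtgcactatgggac
Rag2, chr2:101624462-101624711, forward strand: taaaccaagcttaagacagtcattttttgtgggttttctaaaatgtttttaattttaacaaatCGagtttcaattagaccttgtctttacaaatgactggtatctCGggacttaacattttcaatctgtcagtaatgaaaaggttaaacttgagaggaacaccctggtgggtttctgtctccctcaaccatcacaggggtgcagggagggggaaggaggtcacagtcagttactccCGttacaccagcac

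The first Ikzf1 start had 44 CpG in these 250 bases, more than 99.5% of the 32851 starts in the table, whose median was 6. Pax5 had 19 (more than 80.3%), and the first and second Ebf1 starts had 9 and 14 (more than 59.7% and 70.6%). Rag1 and Rag2 had 3 each, and 29% of starts had fewer. The second Ikzf1 start had only 1, fewer than Rag1 and Rag2, and 7.87% of starts had fewer. Among motifs searched on both strands of the same 250 bases, counting overlapping matches, the core bound by EBF1 (CCCNNGGG, in 11.8% of starts) matched once, at the first Ikzf1 start. The core bound by Ikaros (TGGGAA, in 21.6%) matched at Rag1 and at the second Ebf1 start. The GA repeat GAGAG (in 54.7%) matched at Rag1, Rag2, the second Ebf1 and the second Ikzf1 start. The E-box CACGTG (in 6.02%) and TATAAA (in 12.4%) matched at none of the 7 starts of these 5 genes. A match is a description of letters and not a bound site.

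Over the 5 windows together H3K9Ac had the most peaks, though none at Myc, while BRWD1 and H3S10pK14Ac peaks were few. The H3K9Ac lists held 18 and 14 member peaks (replicates 1 and 2), the BRWD1 lists 1 and 3, and the H3S10pK14Ac lists 0 and 3. Over the 850 kb of the windows this was 2.12 and 1.65 H3K9Ac peaks per 100 kb, against 0.38 and 0.62 per 100 kb over the chromosomes. For BRWD1 the densities were 0.12 and 0.35 against 0.22 and 0.38, and for H3S10pK14Ac replicate 2 they were 0.35 against 0.40. The replicate 2 densities of BRWD1 and H3S10pK14Ac were thus near those over the chromosomes, and their low counts do not set the windows apart. H3S10pK14Ac replicate 1 has only 103 peaks in the genome, so its absence from the windows carries little information. The comparison is a description, since the windows were set around genes and the chromosomes as a whole were not. No test was made, neither of the windows against the chromosomes nor of the antibodies against each other. For antibodies, with 2 replicates in each group, the smallest two-sided p that an exact permutation test allows is 0.333. Read depth is unknown.

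**Figure D1:**
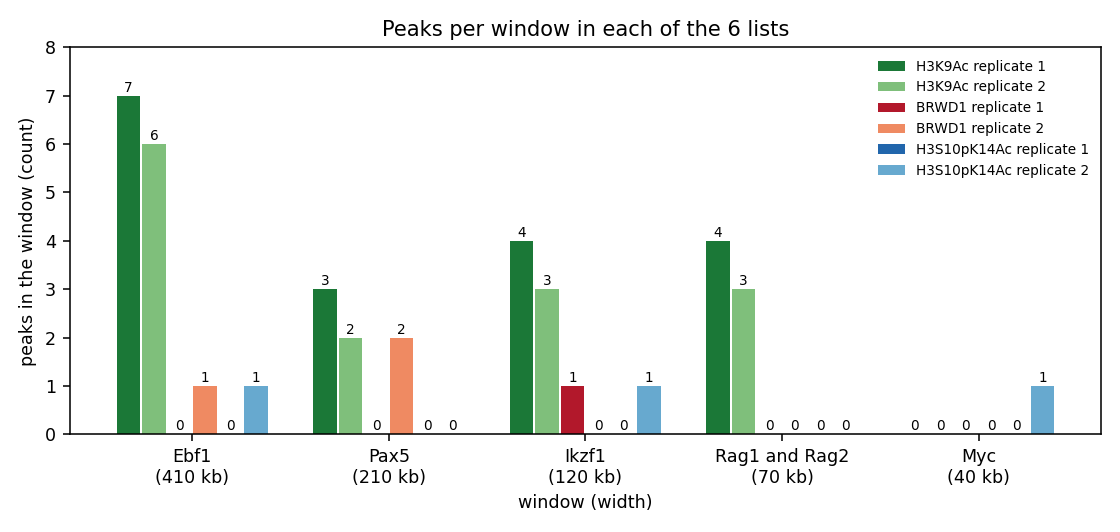
Number of peaks (vertical axis, count) in each window (horizontal axis, with its width in kb) for each of the 6 lists (bars). H3K9Ac peaks were listed in 4 windows by both replicates and in the Myc window by neither, and no bar of BRWD1 or H3S10pK14Ac exceeds 2.

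At Ebf1, H3K9Ac peaks gathered in 8.83 kb near the lower end of the window, and the remaining peaks of the window were scattered. This stretch, chromosome 11 from 44424958 to 44433783, held 4 of the 7 replicate 1 peaks and 4 of the 6 replicate 2 peaks. The best replicate 1 peak lay at 44432004 to 44433783, was 1780 bp wide and scored 19.3, above 94.2% of its list. The score was taken as the −log10 of a peak's significance, and it is read here only within a list. In replicate 2 the same place carried 3 narrow peaks: 44432086 to 44432244 (score 5.90), 44432523 to 44432748 (8.60) and 44432850 to 44433096 (18.1, above 96.3% of its list). Each of these lay wholly inside the replicate 1 peak, so the replicates met at the place but not in the width of the signal.

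Beside it, H3K9Ac replicate 1 had a 965 bp peak at 44430800 to 44431764 (score 13.3), 0.321 kb from the nearest replicate 2 peak. RefSeq lists 2 Ebf1 starts 2.13 kb apart; whether either lies under these peaks was not tested. The other peaks of this stretch scored 5.85 and 5.09 in replicate 1 and 5.24 in replicate 2.

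Farther into the Ebf1 window, the H3K9Ac lists held 5 peaks that no other list overlapped. Those of replicate 1 lay at 44570476 (score 5.13), 44578325 (5.95) and 44705030 (6.96), and those of replicate 2 at 44578004 (7.38, above 69.1% of its list) and 44672514 (5.24, above 4.41%). The peaks that start at 44578004 and 44578325 came within 0.139 kb of each other without overlap. Among other 410 kb windows of the genome, 94.1% and 85.9% had fewer H3K9Ac peaks than the Ebf1 window in replicates 1 and 2, and 92.9% and 92.7% had a lower best score.

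Pax5 had the highest-scored H3K9Ac replicate 1 peak among the 5 windows. It lay at chromosome 4, 44722266 to 44723606, with a width of 1341 bp and a score of 29.9, rank 165 of 10118. Replicate 2 overlapped it with a peak from 44721896 to 44723346, 1451 bp wide and scored 14.3, above 93.4% of its list. The peaks shared 1081 bp, 80.6% of the shorter. These peaks, the best of the window in each replicate, lay 16.4 and 16.7 kb from the upper end of the window, whereas the best peaks of Ebf1 lay 12 and 12.8 kb and those of Ikzf1 16.4 and 17.5 kb from the lower end. In GRCm38.p6 Pax5 runs on the reverse strand, and Ebf1 and Ikzf1 run forward.

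A second H3K9Ac place in the Pax5 window was also found by both replicates. It lay at 44684091 to 44684588 in replicate 1 (score 11.6) and at 44684260 to 44684521 in replicate 2 (score 13.6, above 92.3% of its list), and the narrower peak lay wholly within the wider. A single further replicate 1 peak stood at 44718418 to 44718921 (score 7.22), 2.97 kb from the nearest replicate 2 peak. Of other 210 kb windows, 98.8% and 93.3% had a lower best H3K9Ac score than Pax5, but 88.9% and 70.6% had fewer peaks.

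In the Ikzf1 window, 6 of the 7 H3K9Ac peaks overlapped a peak of the other replicate. Over the whole lists, 43.2% of replicate 1 and 29.2% of replicate 2 peaks did so, and with so few peaks the difference was not tested. All 3 replicate 2 peaks and 3 of the 4 replicate 1 peaks lay in 5.42 kb of chromosome 11, from 11586439 to 11591860, and they formed 3 overlapping pairs. In the first pair, replicate 1 spanned 11586439 to 11587329 (score 16.9) and replicate 2 spanned 11586568 to 11587132 (9.84). In the second, replicate 1 spanned 11587522 to 11589369 (5.81) and replicate 2 spanned 11587495 to 11588704 (20.7, above 97.3% of its list). In the third the scores were 6.95 and 5.69, at 11591157 to 11591860 and 11591370 to 11591725.

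The scores of the first 2 Ikzf1 pairs ran in opposite order between the replicates. The replicate 1 peak of the second pair was the widest of all member peaks, at 1848 bp, yet only 29.5% of its list scored lower. RefSeq lists 2 Ikzf1 starts 4.25 kb apart, a span shorter than this group of peaks. Among other 120 kb windows, 97.2% and 91.4% had fewer H3K9Ac peaks and 96.8% and 98.2% had a lower best score.

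**Figure D2:**
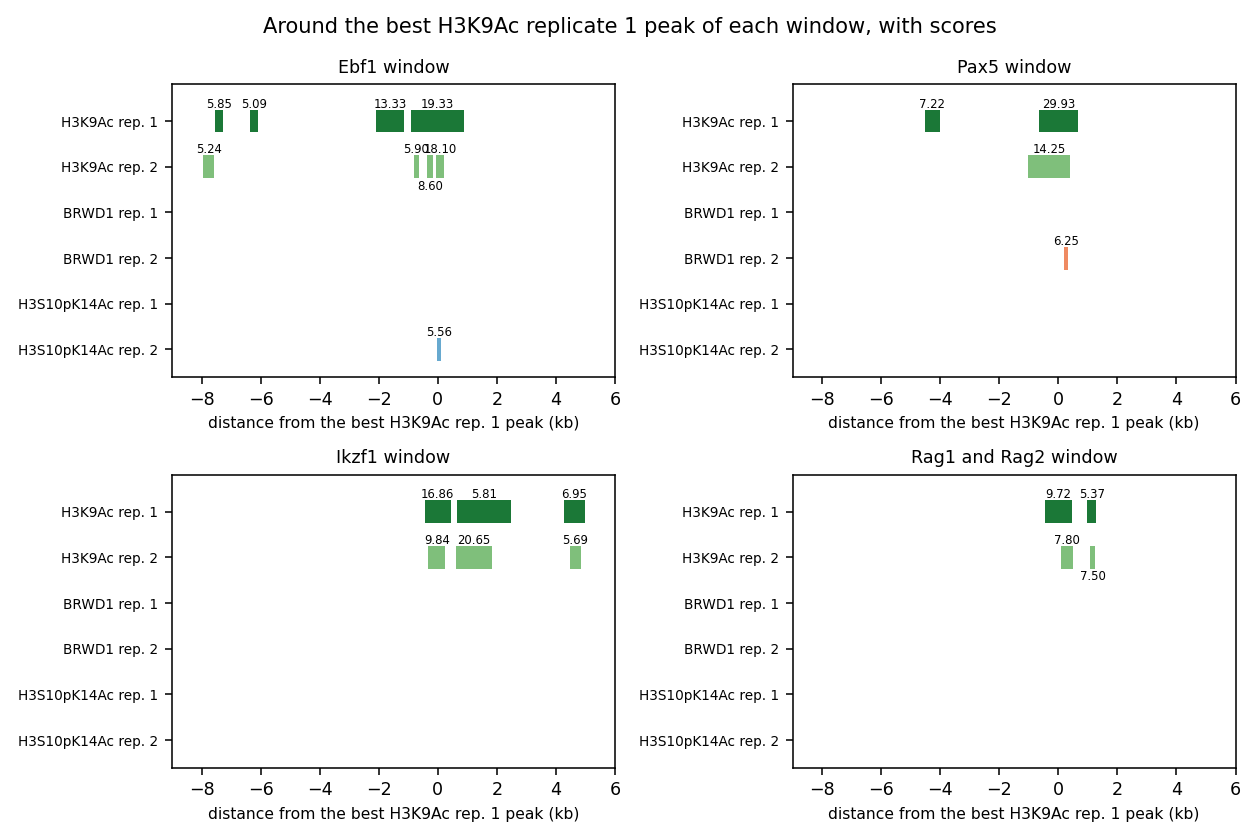
Peaks of the 6 lists (rows) around the highest-scored H3K9Ac replicate 1 peak of 4 windows, drawn to scale with the score printed beside each; the horizontal axis is the distance in kb from the centre of that peak. Both H3K9Ac replicates lie within 1 kb of the centre in every panel, with a BRWD1 replicate 2 peak (score 6.25) at Pax5 and an H3S10pK14Ac replicate 2 peak (score 5.56) at Ebf1.

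The Rag1 and Rag2 window had the most H3K9Ac peaks per 100 kb of the 5 windows. Its best scores were the lowest of the 4 windows that had any, which differ in width from 70 to 410 kb. Both replicates had 2 peaks in 1.75 kb of chromosome 2, from 101488712 to 101490458. Replicate 1 had peaks at 101488712 to 101489622 (911 bp, score 9.72) and 101490147 to 101490458 (312 bp, 5.37). Replicate 2 had peaks at 101489263 to 101489681 (419 bp, score 7.80) and 101490247 to 101490410 (164 bp, 7.50). Each replicate 1 peak overlapped its replicate 2 counterpart.

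Away from this place the replicates did not meet in the Rag window. Replicate 1 had peaks at 101441018 to 101441451 (score 6.49) and 101465141 to 101465420 (6.36), and replicate 2 had a peak at 101504650 to 101504853 (5.45). The peak at 101465141 lay 23.3 kb below the place where the replicates met. In GRCm38.p6 Rag1 and Rag2 lie tail to tail with starts 24.8 kb apart, and this spacing was not used to place the peaks. No peak of the window scored 10 or more. The window had 5.71 and 4.29 H3K9Ac peaks per 100 kb, against 3.33 and 2.50 at Ikzf1, 1.71 and 1.46 at Ebf1 and 1.43 and 0.95 at Pax5. By bases covered, Ikzf1 was ahead in both replicates, with 3815 and 2131 bp of 120 kb against 1937 and 787 bp of 70 kb. Of other 70 kb windows, 98.9% and 96.0% had fewer peaks and 94.6% and 91.6% a lower best score. No BRWD1 or H3S10pK14Ac peak lay in the Rag window, which was also the case for most windows of this width: 86.1% and 77.5% had no BRWD1 peak and 76.8% had none of H3S10pK14Ac replicate 2.

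The Myc window had no H3K9Ac peak in either replicate and no BRWD1 peak. Its only peak came from H3S10pK14Ac replicate 2, at chromosome 15, 61807527 to 61807708 (182 bp, score 5.56), a score it shared with 4616 other peaks of its list. The nearest H3K9Ac peaks were 62.1 kb away in replicate 1 and 20.8 kb away in replicate 2. Windows of 40 kb without H3K9Ac are common, since 89.7% and 82.7% of the others had no peak in replicates 1 and 2. A missing peak means that no place passed the authors' threshold, and does not show that the mark was absent.

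**Figure D3:**
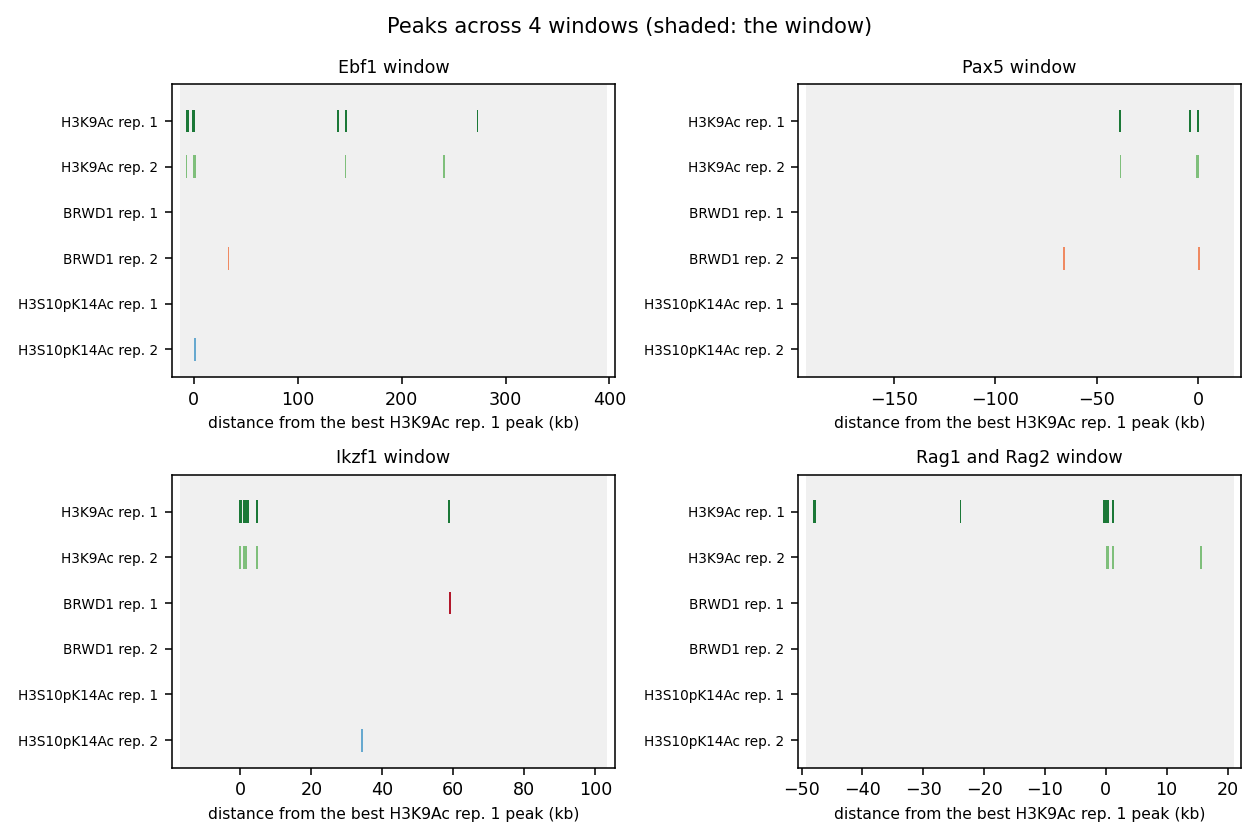
Positions of the peaks of the 6 lists (rows) across the Ebf1, Pax5, Ikzf1 and Rag windows (shaded); the horizontal axis is the distance in kb from the centre of the highest-scored H3K9Ac replicate 1 peak. Each peak is drawn at least 0.4% of the window wide so that it can be seen, and H3K9Ac peaks of both replicates lie near 0 kb in all 4 panels.

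Across the windows, the H3K9Ac replicates met in 10 overlapping pairs of peaks. The smallest overlap was 159 bp, and 7 of the 10 pairs had the shorter peak wholly inside the longer. Of the 18 replicate 1 peaks, 8 (44.4%) overlapped replicate 2, which is near the 43.2% of the whole list. Of the 14 replicate 2 peaks, 10 (71.4%) overlapped replicate 1, against 29.2% of the whole list. The 3 replicate 2 peaks under the wide Ebf1 peak of replicate 1 are counted singly here. Peaks that overlapped the other replicate had a median score of 10.6 in replicate 1 (5.37 to 29.9) and 9.22 in replicate 2 (5.69 to 20.7). For those that did not, the medians were 6.43 (5.09 to 13.3) and 5.35 (5.24 to 7.38), so the ranges overlapped in both lists. Of the 14 unpaired peaks, 5 came within 1 kb of the other replicate, all in the Ebf1 window. The same gap is counted from both sides there, for the peaks starting at 44425345 and 44424958 and for those at 44578325 and 44578004. The share of all unpaired peaks of the lists within 1 kb was not counted.

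BRWD1 and H3K9Ac peaks met at 2 places, at Pax5 and at Ikzf1, each in a single BRWD1 replicate. At Pax5, the BRWD1 replicate 2 peak at 44723114 to 44723265 (152 bp, score 6.25, above 73.3% of its list) lay wholly inside the wide H3K9Ac peaks of both replicates. At Ikzf1, the BRWD1 replicate 1 peak at 11645621 to 11645694 (74 bp, score 6.31, above 78.1% of its list) lay inside an H3K9Ac replicate 1 peak at 11645479 to 11645850 (score 7.03). That place was 53.9 kb from the nearest H3K9Ac replicate 2 peak and was not among the places where the H3K9Ac replicates met. The other BRWD1 peaks, at 44465297 to 44465543 in the Ebf1 window and 44656460 to 44656623 in the Pax5 window, were from replicate 2. Each scored 5.70, a value shared with 3819 other peaks of the list, and lay 27.5 to 32.2 kb from the nearest H3K9Ac peaks.

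No BRWD1 member peak was found in both replicates: 0 of 1 in replicate 1 and 0 of 3 in replicate 2, against 11.8% and 6.63% of the whole lists. With so few peaks these counts do not set the windows apart. H3K9Ac of either replicate was overlapped by 1 of 1 and 1 of 3 BRWD1 peaks, against 13.2% and 12.6% of the whole lists. Seen from H3K9Ac, 2 of 18 replicate 1 and 1 of 14 replicate 2 peaks carried BRWD1, against 10.7% and 6.3%, which is near the rate of all H3K9Ac peaks. No BRWD1 member overlapped H3S10pK14Ac, against 5.25% and 5.5% of all BRWD1 peaks in replicates 1 and 2.

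H3S10pK14Ac met H3K9Ac at a single place, in the Ebf1 window. The H3S10pK14Ac replicate 2 peak at 44432853 to 44433008 (156 bp, score 5.56) lay wholly inside the best H3K9Ac peak of each replicate. The other H3S10pK14Ac members were the Myc peak and a peak in the Ikzf1 window at 11620905 to 11621048 (144 bp, score 5.11), 24.4 kb from the nearest H3K9Ac peak, and only 0.686% of its list scored lower. Thus 1 of 3 H3S10pK14Ac replicate 2 peaks overlapped H3K9Ac, against 7.81% of the list, none overlapped BRWD1, against 5.46%, and none overlapped replicate 1, against 0.301%. Of the H3K9Ac peaks, 1 of 18 in replicate 1 and 1 of 14 in replicate 2 carried H3S10pK14Ac, against 4% and 4.52% of all.

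No place in the 5 windows had peaks of BRWD1, H3K9Ac and H3S10pK14Ac together. Over the genome there were 358 places where bases were covered by all 3, so 850 kb at the mean rate would hold 0.115. A count of 0 therefore does not set the windows apart. At the same rates the windows would hold 0.501 places of H3K9Ac with BRWD1, where 2 were found, and 0.270 of H3K9Ac with H3S10pK14Ac, where 1 was found. These windows hold more H3K9Ac peaks than average, and the counts were not tested. The nearest approach of a BRWD1 replicate 2 peak to the H3S10pK14Ac peak at Ebf1 was 32.3 kb.

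**Figure D4:**
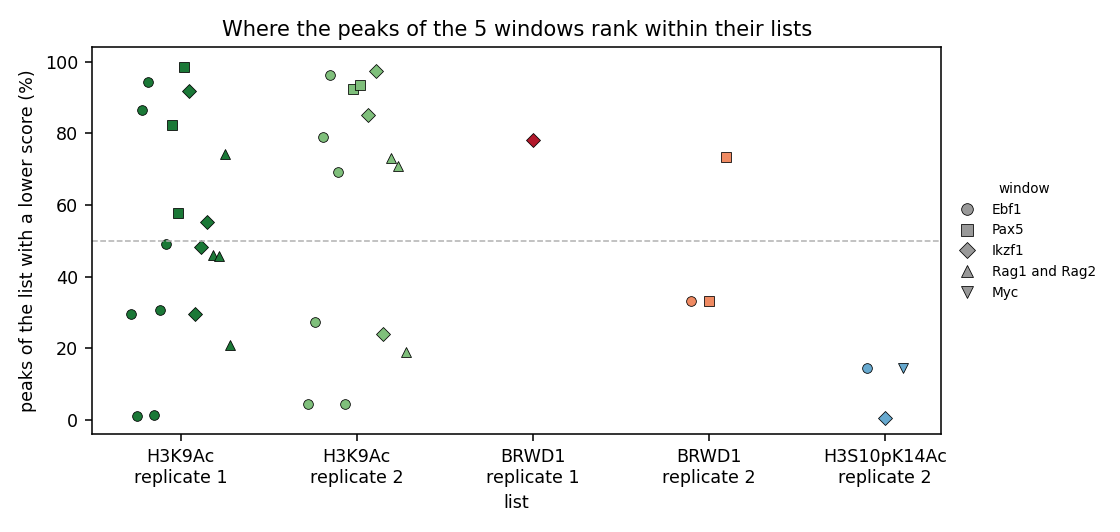
Share of the peaks of its own list (vertical axis, %) that scored lower than each member peak, by list (horizontal axis) and window (symbol); the dashed line marks 50%. H3K9Ac members reach 98.4% and 97.3% in replicates 1 and 2, BRWD1 members 78.1% and 73.3%, and H3S10pK14Ac replicate 2 members lie at or below 14.5%. Ties are not counted as lower: the H3S10pK14Ac members at 14.5% have the median score of their list, 5.56, which 43.4% of its peaks share, and the BRWD1 members at 33.1% have the median score 5.70, which 38.3% share.

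By rank within their lists, the BRWD1 member at Ikzf1 (78.1%) and the higher-scored one at Pax5 (73.3%) stood near the best H3K9Ac members of the Rag window (74.3% and 73.0%). Both stood below the best H3K9Ac members of the Ebf1, Pax5 and Ikzf1 windows. The other BRWD1 member at Pax5 and that at Ebf1 stood at 33.1%. Ties differ between lists, so like ranks do not mean like scores. Scores of 10 or more, a limit that cuts each list at another rank, were found for 5 of 18 and 4 of 14 H3K9Ac members in replicates 1 and 2. All of them lay at Ebf1, Pax5 and Ikzf1. In the whole replicate 1 list, 74.3% of peaks scored below 9.72 and 82.2% below 11.57. In replicate 2, 85.1% scored below 9.84 and 92.3% below 13.64. The share of each list at 10 or more was not counted. No BRWD1 or H3S10pK14Ac member reached 10, but the medians of those lists were only 5.47 to 5.95, so this does not set the windows apart. H3K9Ac members of 1 kb or wider numbered 3 of 18 in replicate 1, at Ebf1, Pax5 and Ikzf1, and 2 of 14 in replicate 2, at Pax5 and Ikzf1. Such widths are rare in both lists. In replicate 1, 94.7% of all peaks were narrower than 965 bp and 98.3% narrower than 1341 bp. In replicate 2, 95.3% were narrower than 565 bp and 99.7% narrower than 1210 bp. The difference was not tested. Median widths of the members were 466 and 254 bp for H3K9Ac against 375 and 208 bp over the whole lists. The 3 BRWD1 replicate 2 members were 152 to 247 bp wide and the 3 H3S10pK14Ac members 144 to 182 bp, where the list medians were 196 and 175 bp.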

How the data were processed

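Peak lists of 6 ChIP-seq samples, 2 biological replicates for each of 3 antibodies, were used. Samples were grouped by title. MACS2, Picard, BWA 0.7.5 and Trimmomatic 0.32 are named per the submitters' processing notes, with the build mm9. Settings, and the input library behind each list, are not stated there. For every replicate the authors deposited its own list, whose score was taken as the −log10 of a p-value or q-value, judging by file naming and a minimum above 5. A list is part of a longer one, since its peak names are numbered past its length, and 18.4 to 43.4% of a list shares a single score, which limits ranks among weak peaks. Widths and scores depend on depth, which is unknown.

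Coordinates are printed from a first base of 1. Peaks shared a place if they overlapped by 1 bp. Places of several antibodies were the bases covered by their peaks, replicates joined. Other windows were all non-overlapping windows of the same width on chromosomes 1 to 19 and X, unmatched for genes. Stretches of H3K9Ac peaks were joined over gaps of up to 5 kb, a choice made after the values were seen. No test was made. The member genes, windows and comparisons were chosen with earlier results of these data known. In each window, the text names the best and widest peak of each list, peaks found in both replicates of BRWD1 or H3S10pK14Ac, and places of 2 or 3 antibodies; all others were added because the members are few. Overlap counting was tested on simulated data. Python 3.11.15, numpy 2.4.6 and matplotlib 3.10.9 were used. Alternatives were score minimums, lists cut to their top peaks, wider and narrower windows, other overlaps and leaving out a replicate.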

Additional observations from a re-analysis of the deposited data

How the results depend on the processing

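No paired analysis was possible because the results come from no test. The number of peaks in the windows (mean of both lists: 16 for H3K9Ac, 2 for BRWD1, 1.5 for H3S10pK14Ac) depended on the lower-scored peaks. With scores of 10 or more these were 4.5, 0 and 0, with scores above the median of the list 8.5, 1 and 0, and with up to 5814 top-scored peaks of each list 10.5, 1 and 0. Peaks tied at that limit were left out, which cut BRWD1 replicate 2 to 2845 and H3S10pK14Ac replicate 2 to 4482 peaks. This by itself removed their members scored 5.70 and 5.56. H3S10pK14Ac replicate 1 kept its 103. The limit at the median removed the same members by itself, because 5.70 and 5.56 are the medians of their lists and only higher scores were kept. Single lists gave 1 to 3 peaks for BRWD1 and 0 to 3 for H3S10pK14Ac. Of H3K9Ac peaks, 18 overlapped the other replicate, against 6, 11 and 11 under these score limits in the same order.

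Windows narrowed by 20 kb at each end, where wider than 60 kb, lose the peaks near their ends, and this left a mean of 7 H3K9Ac peaks, with 6 found in both replicates. The 2 places of H3K9Ac with BRWD1 became 1 in narrowed windows and 0 at scores of 10 or more, and leaving out a list gave 1 to 2. The place of H3K9Ac with H3S10pK14Ac became 0 in narrowed windows, under each score limit and without H3S10pK14Ac replicate 2, and leaving out lists gave 0 to 1. No place of all 3 antibodies and no BRWD1 peak of both replicates appeared under any alternative run, peaks within 1 kb and windows widened by 20 kb included. In all, 52 of 79 values stayed within 1.5 times the value reported. These 52 include every alternative of the results that were 0 and stayed 0, while the 27 that moved all belonged to results above 0.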

Other observations

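In the 20 kb on either side of the windows, the lists held 7 further peaks, none overlapped by a peak of another list. The Rag window had a BRWD1 replicate 1 peak on each side, 12.5 kb below it (chromosome 2, 101427451 to 101427518) and 6.52 kb above it (101516517 to 101516588), both scored 5.47, the commonest score of that list. The nearest H3K9Ac peak below the Myc window was from replicate 2 (chromosome 15, 61786584 to 61786756, score 5.90, 13.2 kb away), and 16.8 kb below the window lay an H3S10pK14Ac replicate 2 peak (61783008 to 61783204) that scored 7.12, above 89.4% of its list and above all H3S10pK14Ac peaks inside the 5 windows. Around Ikzf1, H3K9Ac replicate 2 had a peak 19.1 kb above the window (chromosome 11, 11709053 to 11709260) with a score of 13.7, above 92.4% of its list. The remaining flanking peaks were H3K9Ac peaks below the Ikzf1 window, scored 5.51 in replicate 1 and 6.09 in replicate 2.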
